A study of Mus musculus with 4 samples.

Results

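The genes for 9 adipokines, the proteins that fat tissue releases into the blood or to its neighbouring cells, were followed in inguinal white adipose tissue (ingWAT) of cold-housed mice with and without the organic cation transporter Oct3 in adipocytes. The genes are *Adipoq*, *Lep*, *Retn*, *Rbp4*, *Cfd*, *Nampt*, *Rarres2*, *Apln* and *Metrnl*. They were taken by symbol, and all 9 were found among the 19030 genes of the expression table. Ctrl mice carry the *Oct3* allele with exon 2 between loxP sites on both chromosomes (Oct3 fl/fl) and no Cre. The cKO mice carry the same alleles together with an Adiponectin-Cre transgene, in which control regions of *Adipoq*, itself one of the 9 genes, drive the recombinase. The 4 libraries are Ctrl 1, Ctrl 2, cKO 1 and cKO 2. They come from C57BL/6 mice labelled as 3 months old and kept at 4°C, and the study's methods describe male mice that passed through a milder temperature first. How many mice each library holds is not given in the sources used here. The p-values therefore set the genotype difference against variation between these libraries only, which may not be that between mice.

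White adipocytes secrete leptin in proportion to their fat store, and leptin restrains food intake through its receptor in the brain. Adiponectin circulates as multimers assembled in the endoplasmic reticulum and favours insulin action and fatty acid oxidation in liver and muscle. Resistin opposes insulin action in mice. Adipsin, the product of *Cfd*, is complement factor D, the serine protease that starts the amplification of the alternative complement pathway. During cold exposure, white fat acquires beige adipocytes that burn fat for heat, and the secretory profile of the depot can change with them.

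Expression is given as FPKM, the fragments of a gene scaled by the length of its transcripts and by the number of mapped reads, so that levels can be compared between genes. For the comparison of cKO with Ctrl, limma was run on log2(FPKM + 1) for those 12658 genes that averaged at least 1 FPKM, and a gene is called when its p-value, adjusted over all these genes by the Benjamini-Hochberg method, is under 0.05. Fold changes are log2 differences of cKO against Ctrl on that scale, where changes of weakly expressed genes come out too small. The variance behind the p-value of a gene is drawn in part from the other genes tested. The depth is not given and was estimated at 17300000 to 18350000 reads per library, so that intervals from it cover counting error only. *Slc22a3*, which encodes Oct3, fell from 16.95 and 17.68 FPKM in the Ctrl libraries to 9.07 and 9.5 FPKM in the cKO libraries (limma, adjusted p = 0.000439). In bulk tissue, fewer cells of a type and less RNA per cell cannot be told apart.

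Of the 9 adipokine genes, 6 were lower in cKO ingWAT, 0 were higher and 3 were not called. Among all genes tested, 13.8% were called lower and 12% higher (1750 and 1519 genes, against 1141 and 2874 genes with adipocyte marker scaling, under which the 9 genes had the same calls). *Lep* fell most, to 0.372 times its Ctrl level, followed by *Rbp4*, *Retn*, *Rarres2*, *Adipoq* and *Cfd*, whereas *Nampt*, *Apln* and *Metrnl* did not pass the test. The 9 values of the log2 fold change had a median of -0.58, against -0.006 for all genes tested. For the 6 genes called lower, the higher cKO library stayed under the lower Ctrl library, an arrangement found for 34.6% of all genes tested. The 3 genes that were not called had overlapping genotypes.

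**Figure D1:**
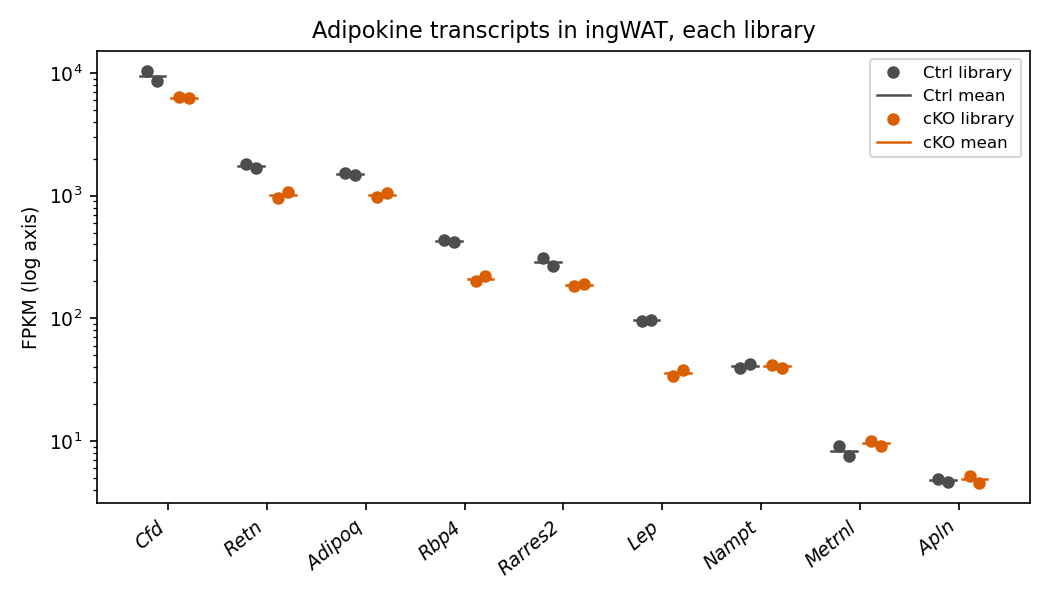
FPKM of the 9 adipokine genes in each library on a log axis, with Ctrl in grey and cKO in orange, points for single libraries and bars for the mean of 2. The genotypes are apart for *Cfd*, *Retn*, *Adipoq*, *Rbp4*, *Rarres2* and *Lep*, and overlap for *Nampt*, *Metrnl* and *Apln*.

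*Adipoq* (Entrez gene 11450, chr16:23146536-23157968 of mm10, plus strand) encodes adiponectin. It stood at 1527 and 1485 FPKM in the Ctrl libraries and at 966 and 1046 FPKM in the cKO libraries. Libraries of a genotype lay close together without overlap between genotypes, and the level in cKO was 33.2% lower. The log2 fold change was -0.58 (standard error 0.080, 95% interval -0.77 to -0.39, limma adjusted p = 0.00275). The call was lost when either Ctrl library was left out, with adjusted p = 0.0835 without Ctrl 1 and adjusted p = 0.0567 without Ctrl 2.

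*Lep* (Entrez gene 16846, chr6:29060221-29073876, plus strand) encodes leptin. Its level was 95.1 and 97 FPKM in the Ctrl libraries, against 33.6 and 37.9 FPKM in the cKO libraries. The gap between genotypes was many times the spread within either, with means of 96 ± 1.29 and 35.8 ± 3.02 FPKM (SD, n = 2 each). The log2 fold change of -1.40 (standard error 0.069, 95% interval -1.57 to -1.24, limma adjusted p = 9.48e-05) was larger in size than that of any other member, and 81 of the 12658 genes tested had a more negative one. By level, *Lep* stood at rank 824 and 788 of all listed genes in the Ctrl libraries and at rank 2238 and 2015 in the cKO libraries.

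*Retn* (Entrez gene 57264, chr8:3655770-3659818, plus strand) encodes resistin, a cysteine-rich hormone that in mice comes mainly from adipocytes. It had 1799 and 1680 FPKM in Ctrl and 950 and 1074 FPKM in cKO. Both cKO libraries were well below both Ctrl libraries, and the mean fell by 41.8%, which is -0.78 on the log2 scale (standard error 0.092, 95% interval -1.0 to -0.57, limma adjusted p = 0.00155). Without Ctrl 1 the call was lost, with adjusted p = 0.061.

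*Rbp4* (Entrez gene 19662, chr19:38116620-38125321, minus strand) encodes the carrier of retinol in plasma, which the liver and fat both release. Its FPKM was 438 and 421 in the Ctrl libraries and 202 and 219 in the cKO libraries. The level in cKO was 0.49 times that in Ctrl, with little spread within either genotype. The log2 fold change was -1.03 (standard error 0.068, 95% interval -1.18 to -0.87, limma adjusted p = 0.000258), and 153 genes tested had a more negative one.

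*Cfd* (Entrez gene 11537, chr10:79890853-79892655, plus strand), the adipsin gene, was the third most abundant of all listed genes in every library. It had 10301 and 8546 FPKM in the Ctrl libraries and 6345 and 6260 FPKM in the cKO libraries. The Ctrl libraries differed from each other by more than the cKO libraries did, with means of 9424 ± 1241 and 6303 ± 60.1 FPKM (SD, n = 2 each). On the log2 scale the fold change was -0.57 (standard error 0.136, 95% interval -0.89 to -0.25, limma adjusted p = 0.0213). This call was the least stable of the 6. It was kept in 6 of the 12 alternative settings, and with the replicate number as a block the adjusted p was 0.153.

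*Rarres2* (Entrez gene 71660, chr6:48569696-48572845, minus strand) encodes chemerin, a chemoattractant that is secreted as an inactive precursor. The study counts it as a WAT-selective gene and, with these RNA-seq data in view, chose it for a separate measurement by real-time PCR, which is not analysed here. Its level was 308 and 269 FPKM in Ctrl and 183 and 192 FPKM in cKO. The genotypes did not overlap, and the log2 fold change was -0.62 (standard error 0.078, 95% interval -0.80 to -0.43, limma adjusted p = 0.00205). An exon of *Lrrc61* on the opposite strand overlaps *Rarres2*, and the library protocol marks no strand, so reads of the overlap cannot be assigned by strand. *Lrrc61* stood between 10.8 and 12.1 FPKM in the 4 libraries.

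*Nampt* (Entrez gene 59027, chr12:32820335-32853369, plus strand) encodes nicotinamide phosphoribosyltransferase, the enzyme that recycles nicotinamide into NAD and is also found outside cells under the name visfatin. Its level was 39.3 and 42.5 FPKM in Ctrl and 42 and 39.6 FPKM in cKO. The genotypes were interleaved, with a log2 fold change of -0.002 (95% interval -0.16 to 0.15, limma adjusted p = 0.982).

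*Apln* (Entrez gene 30878, chrX:48025146-48034853, minus strand) encodes apelin, a peptide that acts on a G protein-coupled receptor of vessels and heart. It had 4.91 and 4.64 FPKM in Ctrl and 5.16 and 4.58 FPKM in cKO. The cKO libraries lay on both sides of the Ctrl libraries, with a log2 fold change of 0.02 (95% interval -0.19 to 0.23, limma adjusted p = 0.878).

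*Metrnl* (Entrez gene 210029, chr11:121702427-121717389, plus strand) encodes meteorin-like, a protein released by muscle after exercise and by fat in the cold. Its level was 9.11 and 7.62 FPKM in Ctrl and 10.1 and 9.06 FPKM in cKO. The lower cKO library stood just under the higher Ctrl library. The log2 fold change was 0.18 (95% interval -0.05 to 0.41, limma adjusted p = 0.233), and that interval includes both a small fall and rises of up to its upper bound. Estimated from the depth, 191 to 237 reads lay behind the values of *Metrnl* and 247 to 280 behind those of *Apln*, against 1900 to 5700 for *Lep* and at least 93500 for *Cfd*. The largest counting error in a library was 7.24% for *Metrnl* and 6.36% for *Apln*, and at most 2.31% for the other members.

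**Figure D2:**
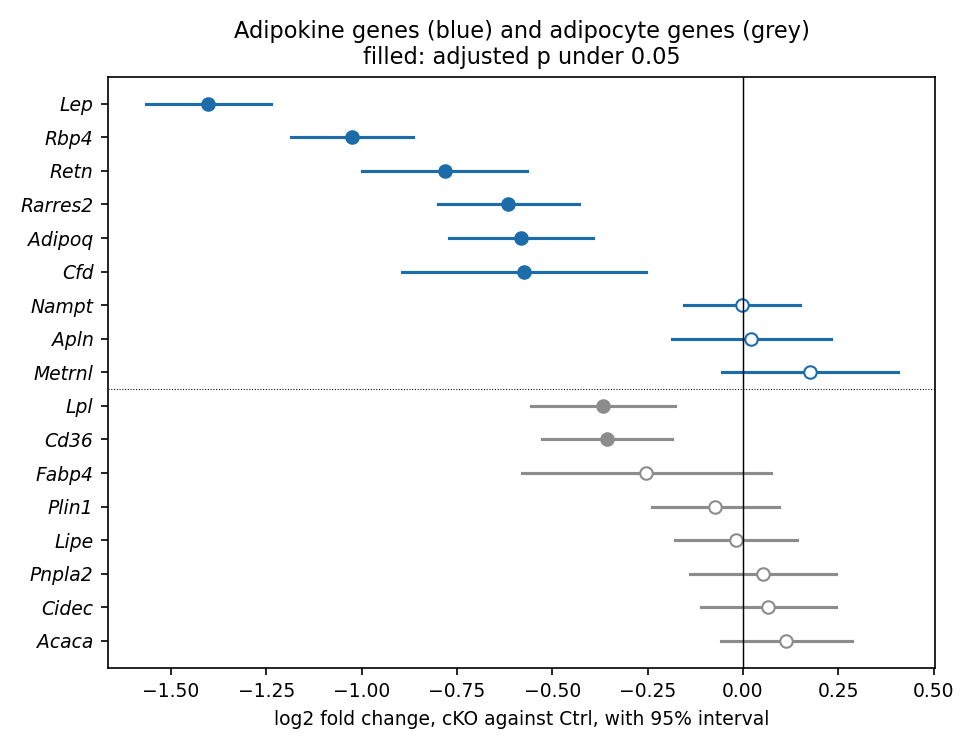
Log2 fold change of cKO against Ctrl with its 95% interval from limma, for the 9 adipokine genes in blue and 8 genes of adipocytes in grey, with filled points for genes called at an adjusted p under 0.05. The intervals of 6 adipokine genes lie below 0, from *Lep* at -1.40 to *Cfd* at -0.57, while the adipocyte genes range from -0.37 to 0.11.

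The order of the levels also differed between genotypes. In the Ctrl libraries *Retn* stood above *Adipoq*, whereas in the cKO libraries the values of both overlapped. In Ctrl both *Lep* values were well above those of *Nampt*, but in cKO both *Lep* values lay below both *Nampt* values. *Rbp4* stayed above *Rarres2* in every library, and *Metrnl* above *Apln*. Relative to *Adipoq* in the same library, *Lep* had 62.3 and 65.3 FPKM per 1000 FPKM of *Adipoq* in Ctrl and 34.8 and 36.2 in cKO. The ratio of *Rbp4* to *Adipoq* was 0.287 and 0.283 in Ctrl and 0.209 and 0.21 in cKO. In contrast, the ratio of *Rarres2* to *Adipoq* overlapped between genotypes, with 0.202 and 0.181 in Ctrl and 0.19 and 0.184 in cKO, and so did that of *Cfd* to *Adipoq*, with 6.74 and 5.75 in Ctrl and 6.57 and 5.99 in cKO. These ratios were not tested.

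Together the 9 genes made up 2.97% and 2.59% of all listed FPKM in the Ctrl libraries and 1.76% and 1.78% in the cKO libraries. *Cfd* alone accounted for 68.1% to 72.6% of the sum of the 9 genes. The summed FPKM averaged 13538 ± 1392 for Ctrl, against 8810 ± 103 for cKO (SD, n = 2 each), with exact permutation p = 0.333, two-sided, which is the smallest p that 2 libraries against 2 allow.

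The values were set beside 8 genes of adipocytes that are not adipokines. Their log2 fold changes had a median of -0.05, or -0.14 with quantile normalization, under which 4 of the 8 were called lower. Without it, *Lpl*, the lipoprotein lipase, and *Cd36*, a fatty acid transporter, were called lower, with log2 fold changes of -0.37 and -0.36, and the other 6 were not called. The summed level of the 8 genes was 22114 and 22590 FPKM in Ctrl and 19271 and 19343 FPKM in cKO. Most of it was *Fabp4*, named after its values were seen, with 15874 and 16398 FPKM in Ctrl and 13456 and 13616 FPKM in cKO. *Adipoq* was 2.86 and 2.99 times the level of *Plin1*, the coat protein of the lipid droplet, in the Ctrl libraries and 1.92 and 2.19 times in the cKO libraries (*Plin1* was picked after its values were seen). When the libraries were scaled by the adipocyte genes, the 6 adipokine genes were called lower, with *Lep* at -1.30 and *Cfd* at -0.47. This scaling is a small shift of all genes, whose median moved from -0.006 to 0.10, and it does not measure the adipocyte content of a library.

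Markers of other cells of the depot moved as well, where 13.8% of all genes tested were called lower and 12% higher. All 8 skeletal muscle genes were called lower, with a summed level of 2230 and 1485 FPKM in the Ctrl libraries and 8.63 and 6.8 FPKM in the cKO libraries. All 5 genes of fibroblast progenitors were called lower, with sums of 941 and 797 FPKM in Ctrl and 400 and 438 FPKM in cKO. All 4 B cell genes and 3 of 4 T cell genes were called higher, as were the 4 of 6 neutrophil genes that could be tested. The sums of the 6 neutrophil genes were 10.5 and 11.2 FPKM in Ctrl and 26.6 and 24.5 FPKM in cKO. Among those tested, *Retnlg* averaged 0.9 FPKM in Ctrl and passed the filter of 1 FPKM only through cKO. The neutrophil genes too low to test showed no such rise. *Ly6g*, a defining neutrophil marker, was listed at 0.06 and 0 FPKM in Ctrl and 0.06 and 0 FPKM in cKO. *Elane* stood at 0.61 and 0.94 FPKM in Ctrl and 0.97 and 0.77 FPKM in cKO. Of 6 macrophage genes 1 (*Cd68*) was called higher and 3 (*Mrc1*, *Csf1r* and *Cd163*) lower, with sums of 756 and 686 FPKM in Ctrl and 759 and 789 FPKM in cKO. Most of these sums was *Lyz2*, which was not called, with 593 and 543 FPKM in Ctrl and 607 and 649 FPKM in cKO. *Adgre1* was not called either, with a log2 fold change of -0.18. With adipocyte marker scaling, 2 macrophage genes were called higher and 2 lower, since *Csf1r* lost its call and *Lyz2* was called. Of 5 endothelial genes 2 were called lower, or 1 with adipocyte marker scaling, with sums of 175 in both Ctrl libraries and 152 and 158 FPKM in cKO. Of 3 listed keratinocyte genes 1 could be tested and was not called, and none of the 2 listed mesothelial genes reached a level that could be tested. The part of these cells in the falls of the adipokine genes was not tested.

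The promoters of the 9 genes were searched for short motifs, among them those of C/EBP and cAMP-responsive factors, whose genes stand in the list of regulators described further on. RefSeq promoters of GRCm38.p6, the assembly of mm10, were found for 8 of the 9 genes, all but *Rarres2*, and the 250 bases before the annotated start were searched on both strands. The motifs were TTNNGNAA, a loose form of the C/EBP site, TGACG, the half-site of the cAMP-responsive element, and CCAAT and TATAAA, 2 further promoter motifs. TTNNGNAA was found in 36.8% of all promoters of that length, TGACG in 17.8%, CCAAT in 33.8% and TATAAA in 12.4%. The 4 sequences below are those of *Lep*, *Adipoq* and *Rbp4*, which fell and hold TTNNGNAA, and of *Nampt*, which did not pass the test and holds TGACG without it. The *Rbp4* promoter shown holds TGACG as well, and *Retn* and *Cfd*, which fell too, hold neither motif. Whether motif and call go together was not tested. The 4 sequences are written 5′ to 3′ up to the last base before the start, with TTNNGNAA and TGACG in capitals and no overlap between these 2 motifs. They lie at chr6:29059971-29060220 on the plus strand, chr16:23146286-23146535 on the plus strand, chr19:38124812-38125061 on the minus strand and chr12:32820085-32820334 on the plus strand.
Lep: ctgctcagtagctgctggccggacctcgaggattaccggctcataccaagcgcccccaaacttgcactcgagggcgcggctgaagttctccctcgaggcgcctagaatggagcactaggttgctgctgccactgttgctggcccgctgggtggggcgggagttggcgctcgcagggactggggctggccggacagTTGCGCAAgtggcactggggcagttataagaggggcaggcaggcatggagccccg
Adipoq: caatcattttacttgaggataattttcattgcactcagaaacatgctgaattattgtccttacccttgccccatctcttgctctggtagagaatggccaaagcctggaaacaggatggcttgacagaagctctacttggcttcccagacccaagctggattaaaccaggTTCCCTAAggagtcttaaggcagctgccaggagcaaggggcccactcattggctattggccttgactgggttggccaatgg
Rbp4: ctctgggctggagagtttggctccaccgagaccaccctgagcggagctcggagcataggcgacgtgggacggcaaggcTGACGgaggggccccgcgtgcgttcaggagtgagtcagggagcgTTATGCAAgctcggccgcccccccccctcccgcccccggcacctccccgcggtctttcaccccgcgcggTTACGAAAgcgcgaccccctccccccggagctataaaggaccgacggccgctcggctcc
Nampt: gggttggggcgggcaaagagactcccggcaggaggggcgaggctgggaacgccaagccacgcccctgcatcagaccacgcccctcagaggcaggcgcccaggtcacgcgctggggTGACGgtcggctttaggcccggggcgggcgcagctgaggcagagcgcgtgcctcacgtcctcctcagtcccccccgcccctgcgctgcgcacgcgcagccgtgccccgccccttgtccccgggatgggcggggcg

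In *Lep* the match to TTNNGNAA began at -55 and read the same on both strands. In *Adipoq* it began at -81, and CCAAT was found 3 times, at -34, -27 and -7. *Rbp4* has 2 annotated starts. The promoter shown holds TTNNGNAA at -128 and -59, TGACG at -172 and TATAAA at -28, counted from the start, and the other holds TTNNGNAA at -9 and CCAAT at -162. None of the 4 motifs was found in the windows of *Retn*, *Cfd*, *Apln* or *Metrnl*. In *Nampt*, TGACG stood at -135, and its promoter was 75.6% G and C, against 65.6% for *Lep* and 48.8% for *Adipoq*. Binding was not measured in these samples, and a match is only a run of letters.

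Receptors and partner genes were then examined for each adipokine, with the same fit. Each count stands beside the 13.8% of all genes tested that were called lower and the 12% called higher. For adiponectin, 2 of 7 genes were called lower and 0 higher. *Cdh13*, which encodes T-cadherin and holds adiponectin multimers at the cell surface, fell from 11.3 and 11.1 to 8.24 and 8.73 FPKM (limma adjusted p = 0.0093). *Gstk1*, whose product takes part in adiponectin assembly, fell with a log2 fold change of -0.21 (limma adjusted p = 0.0259), a call lost with adipocyte marker scaling. The receptor genes *Adipor1* and *Adipor2*, named after their values were seen, were not called, with log2 fold changes of 0.07 and 0.01. For leptin, 0 of 5 genes of its receptor and its JAK-STAT signal were called. *Lepr*, the receptor gene, stood at 3.05 and 3.59 FPKM in Ctrl and 3.29 and 5.38 FPKM in cKO, and *Socs3*, a feedback inhibitor, at 6.77 and 6.28 FPKM in Ctrl and 6.61 and 7.28 FPKM in cKO.

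The resistin family itself was split. *Retnla*, which encodes resistin-like molecule alpha, fell from 557 and 473 to 187 and 177 FPKM, a log2 fold change of -1.49 (limma adjusted p = 0.000178). *Retnlg*, a gene of neutrophils, rose from 0.72 and 1.08 to 2.39 and 1.58 FPKM (limma adjusted p = 0.0308), in libraries in which the other 3 neutrophil genes that could be tested rose too. With a mean of 0.9 FPKM in Ctrl, *Retnlg* passed the filter of 1 FPKM only through its level in cKO. *Retnlb* was not among the listed genes. Of 2 proposed receptors for resistin, *Tlr4* fell, with a log2 fold change of -0.49 (limma adjusted p = 0.00774), and *Cap1* rose, with 0.20 (limma adjusted p = 0.0412).

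The partners of chemerin are its receptors and the proteases that act on it. Of the 5 genes that could be tested, 4 were called lower and 0 higher, beside the fall of *Rarres2*. The share called lower among all genes tested was 13.8%. *Cmklr1*, the signalling receptor for chemerin, fell from 41.8 and 36 to 17.8 and 18.8 FPKM, a log2 fold change of -1.04 (limma adjusted p = 0.000408). *Gpr1*, a further receptor, fell from 2.27 and 1.5 to 0.62 and 0.74 FPKM (limma adjusted p = 0.012), low levels with both cKO values under 1 FPKM. Thus *Gpr1* passed the filter of 1 FPKM only through its level in Ctrl. The receptor gene *Ccrl2*, named after its values were seen, was not called. It stood at 2.36 and 2.27 FPKM in Ctrl and 1.88 and 2.36 FPKM in cKO, a log2 fold change of -0.09. *Plat* and *Plau*, which encode tissue-type and urokinase-type plasminogen activator, proteases upstream of plasmin, a protease that can process the chemerin precursor, had log2 fold changes of -0.70 and -0.66 and were called lower. The summed level of the list was 84.6 and 74 FPKM in Ctrl and 42.5 and 44.1 FPKM in cKO.

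For apelin, whose own transcript was not called, the receptor gene *Aplnr* fell from 11.3 and 11.4 to 5.61 and 6.31 FPKM, a log2 fold change of -0.83 (limma adjusted p = 0.00079). *Mme*, a peptidase that cleaves apelin, was not called. The receptor is known from endothelial cells. Of the 5 endothelial marker genes, *Tek* and *Cdh5* were called lower, and *Cdh5* lost its call with adipocyte marker scaling. *Pecam1*, *Kdr* and *Vwf* were not called, with log2 fold changes of -0.06, -0.10 and -0.16. A link between these markers and the fall of *Aplnr* was not tested. For meteorin-like, neither its paralog *Metrn* nor *Kit*, reported to bind it, was called, with log2 fold changes of -0.24 and 0.08. Of the 4 partners of *Rbp4* examined, 0 reached the level tested. *Ttr*, the plasma partner of Rbp4, was listed at 0 in 3 libraries and at 0.09 FPKM in Ctrl 1.

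**Figure D3:**
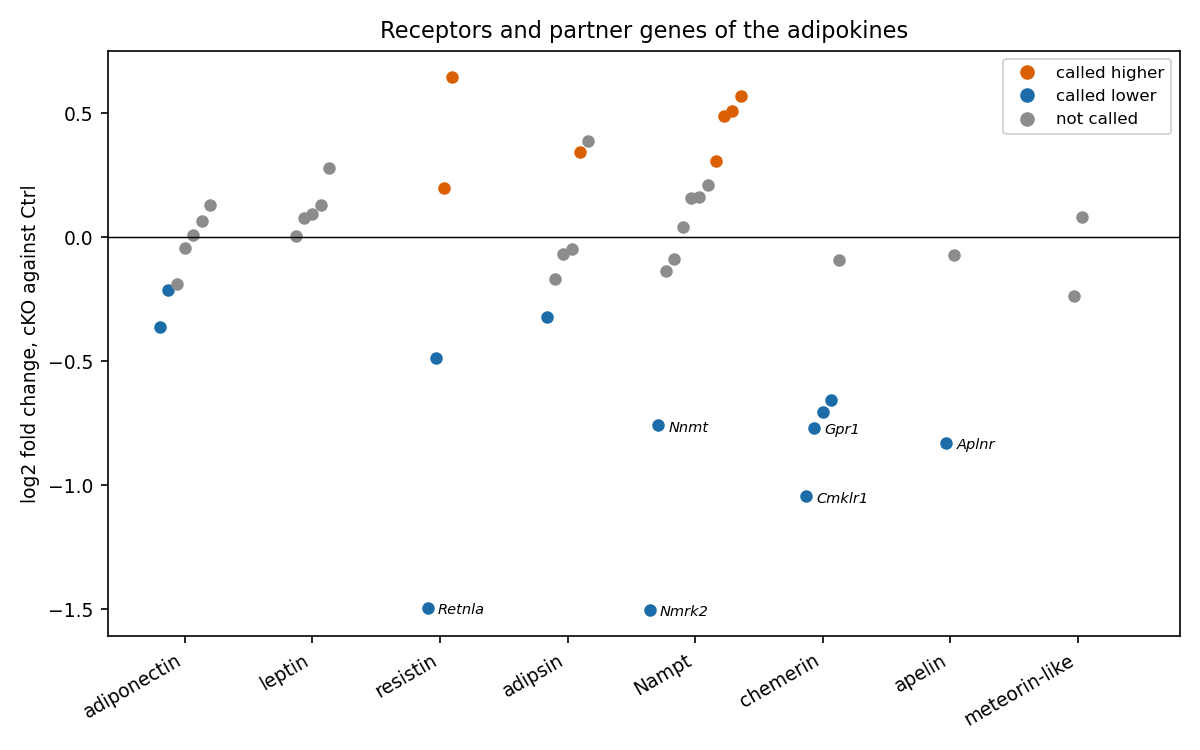
Log2 fold change of cKO against Ctrl for the tested partner genes of 8 adipokines, 1 point per gene, in blue where called lower, in orange where called higher and in grey where not called. Of the 5 chemerin genes 4 are called lower, and none of the 5 leptin genes is called.

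Beside *Cfd*, 6 genes of the alternative complement pathway could be tested, of which 1 was called lower and 1 higher. These counts are near the shares among all genes tested, 13.8% lower and 12% higher. *Cfb*, the substrate of adipsin, fell with a log2 fold change of -0.32 (limma adjusted p = 0.0103). *C3ar1*, the receptor for the fragment C3a, rose with a log2 fold change of 0.34 and an adjusted p close to the threshold (limma adjusted p = 0.049), and its call was lost with median-of-ratios scaling and with quantile normalization. *C3* itself, named after its values were seen, was not called, with 275 and 263 FPKM in Ctrl and 233 and 246 FPKM in cKO.

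Although *Nampt* was not called, 6 of 12 tested genes of NAD synthesis and use were, 4 higher and 2 lower. The shares among all genes tested were 12% higher and 13.8% lower. *Bst1*, an NAD-consuming ectoenzyme, rose with a log2 fold change of 0.57, *Nmnat1*, the nuclear enzyme of the last step of NAD synthesis, with 0.51, and *Sirt3*, a mitochondrial NAD-dependent deacylase, with 0.49. *Nnmt*, which methylates nicotinamide and thereby removes it from the salvage route, fell from 95.8 and 91.6 to 50.8 and 59.4 FPKM, a log2 fold change of -0.76 (limma adjusted p = 0.00117). *Nmrk2*, a nicotinamide riboside kinase best known from muscle, fell from 3.2 and 1.98 to 0.42 and 0.1 FPKM, and the 8 skeletal muscle genes fell in the same libraries. With a cKO mean of 0.26 FPKM, *Nmrk2* passed the filter of 1 FPKM only through its level in Ctrl.

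Adiponectin belongs to the C1q and TNF related proteins, and 6 of its paralogs could be tested. All 6 were called lower, against 13.8% of all genes tested. With adipocyte marker scaling 4 were called lower, since *C1qtnf5* and *C1qtnf6* lost the call. Their median was -0.61 on the log2 scale, beside -0.58 for *Adipoq*. *C1qtnf2* had the largest change with -0.80, followed by *C1qtnf1* with -0.68, *C1qtnf7* with -0.62 and *C1qtnf9* with -0.59, and *C1qtnf5* had -0.36. *C1qtnf9* was at 20.7 and 21.8 FPKM in Ctrl and at 13.3 and 14.2 FPKM in cKO. All of them were expressed at much lower levels than *Adipoq*, with a summed level of 73.5 to 79.7 FPKM in Ctrl and 49.2 to 50.3 FPKM in cKO for the whole list.

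Not all secreted factors of fat fell. Among 27 further factors 20 could be tested, of which 8 were called lower and 4 higher, or 7 lower and 6 higher with adipocyte marker scaling. In the reported fit, 13.8% of all genes tested were called lower and 12% higher. The 20 log2 fold changes had a median of -0.11, or -0.004 under that scaling. *Ccl2*, a chemokine for monocytes, rose from 4.35 and 3.58 to 20.4 and 17 FPKM, a log2 fold change of 1.98 (limma adjusted p = 0.000161). *Gdf15*, a stress-induced hormone, rose from 0.57 and 0.21 to 3.23 and 2.66 FPKM, and *Lcn2*, a lipocalin, from 1.06 and 1.42 to 4.36 and 4.73 FPKM. The Ctrl mean of *Gdf15* was 0.39 FPKM, so it passed the filter of 1 FPKM only through its level in cKO. The largest fall was that of *Agt*, which encodes angiotensinogen, from 11.9 and 10.7 to 4.22 and 4.43 FPKM, a log2 fold change of -1.21 (limma adjusted p = 0.000275). *Sfrp5*, a secreted antagonist of Wnt signalling, fell from 10.8 and 8.91 to 4.03 and 4.93 FPKM (limma adjusted p = 0.0016).

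**Figure D4:**
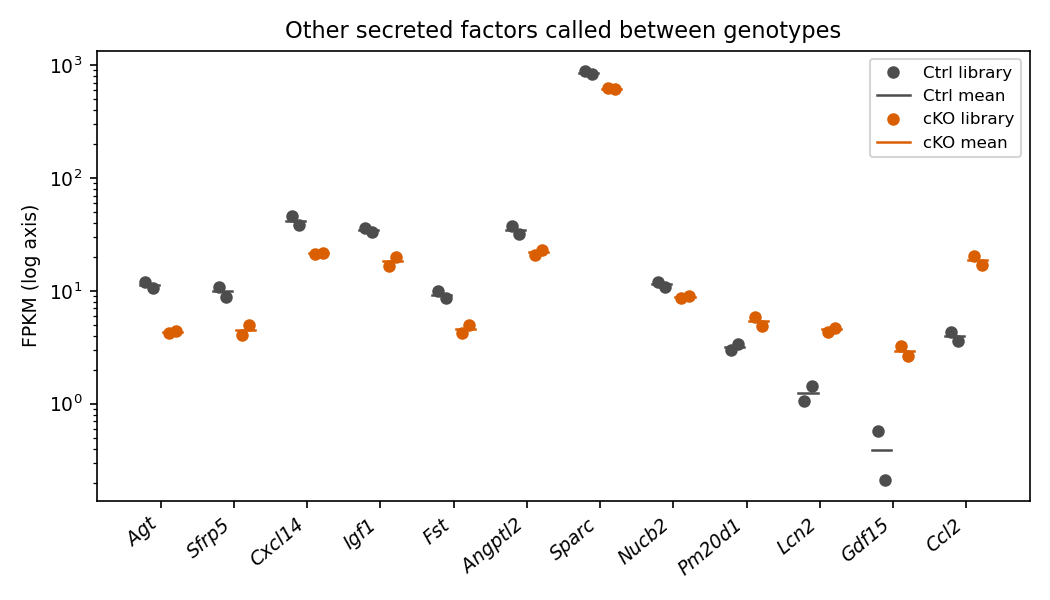
FPKM in each library on a log axis for the 12 further secreted factors called between genotypes, ordered from the largest fall to the largest rise, with Ctrl in grey and cKO in orange and bars for the mean of 2 libraries. The 8 genes called lower stand on the left and the 4 called higher, ending with *Ccl2*, on the right.

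Of 13 genes for transcription factors and coactivators that act on adipokine genes, 7 were called lower and 3 higher. The shares among all genes tested were 13.8% lower and 12% higher. *Atf3*, a stress-induced member of the ATF/CREB family, rose with a log2 fold change of 0.90, *Ppargc1a*, the thermogenic coactivator, with 0.83, and *Cebpb* with 0.55. *Srebf1*, a regulator of fat synthesis, fell with -0.51, and *Klf15* with -0.49. *Cebpa*, *Cebpd* and *Pparg*, named after their values were seen, were also called lower, with log2 fold changes of -0.28, -0.43 and -0.25. *Creb1*, likewise named after its values were seen, was not called, with 6.01 and 6.41 FPKM in Ctrl and 5.59 and 6.5 FPKM in cKO. Adipocyte marker scaling left 4 of the 13 genes called lower, since *Cebpa*, *Pparg* and *Nr1h3* lost their calls. Thus the C/EBP genes differed in direction, with *Cebpb* higher at 62.9 and 52.2 FPKM in Ctrl and 84.4 and 83.7 FPKM in cKO, and *Cebpa* lower at 383 and 347 FPKM in Ctrl and 302 and 298 FPKM in cKO.

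The genes whose profile over the 4 libraries lay nearest to a member were sought among the 6214 genes that averaged 10 FPKM or more, by the root mean square distance of centred log2(FPKM + 1) values. For *Adipoq* they were *Fkbp9*, *Timp3* and *Colec12*, at distances of 0.0074 to 0.0149. *Fkbp9* had 81.3 and 78.5 FPKM in Ctrl and 51.3 and 55 FPKM in cKO. For *Lep* they were *Rtn2*, *Ogn* and *Ptges*, at larger distances of 0.0849 to 0.102, and for *Retn* they were *Phgdh*, *Ms4a4d* and *Neat1*, at 0.0161 to 0.022. With only 4 libraries in 2 groups, nearness is mostly a like difference between genotypes.

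**Figure D5:**
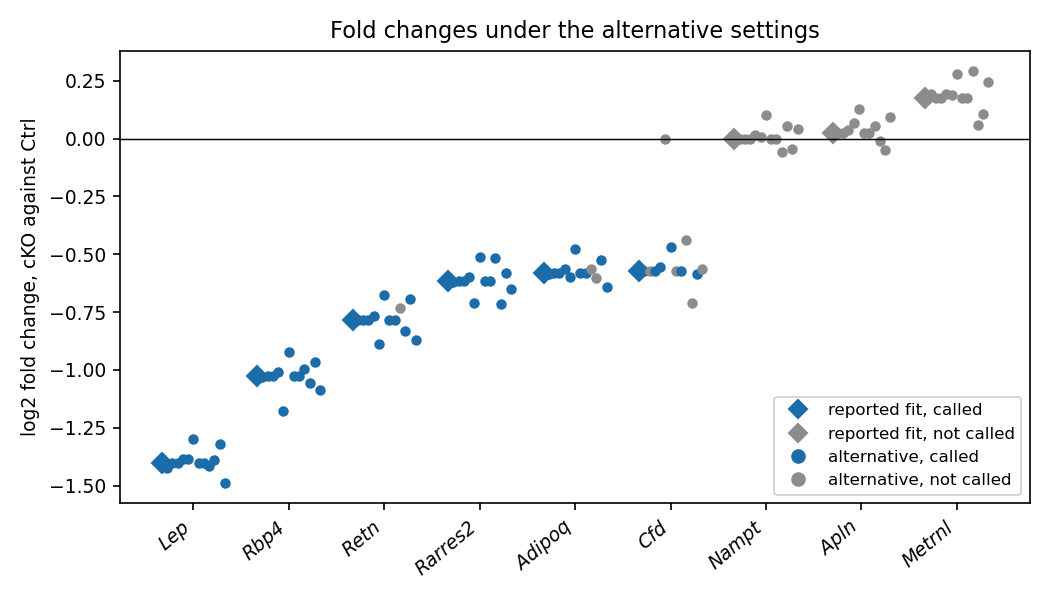
Log2 fold change of each adipokine gene in the reported fit (diamonds) and under the alternative settings (dots), in blue where the gene was called and in grey where it was not. *Lep*, *Rbp4* and *Rarres2* were called in all 12 alternatives, and *Cfd* in 6, with a value of 0 under quantile normalization.

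*Lep*, *Rbp4* and *Rarres2* were called lower in all 12 alternative settings tried, *Retn* in 11, *Adipoq* in 10 and *Cfd* in 6. Over these settings the log2 fold change ranged from -1.49 to -1.30 for *Lep*, from -1.18 to -0.92 for *Rbp4* and from -0.71 to -0.51 for *Rarres2*. *Nampt*, *Apln* and *Metrnl* were called in 0 settings, and *Nampt* and *Apln* had no stable sign, as the plot of fold changes under the alternative settings shows.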

How the data were processed

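RNA of ingWAT was sequenced by the authors as 50-base single-end reads after poly(A) selection on the BGISEQ-500. The submitters' processing notes name HISAT2 2.0.4, RSEM 1.2.12 and the build mm10. The deposited values are FPKM per gene and library, given to the hundredth, with no further scaling stated. Columns were matched to samples by title, 0 per-sample columns were left unused, and Control and Deficient are called Ctrl and cKO.

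FPKM sums ranged from 484152 to 497839 per library. Depth was inferred from low FPKM values, which for 306 small non-coding RNA genes (400 bases or fewer) are multiples of what 1 read is worth, using values of 6 reads or fewer. Whole numbers, within 0.1, were obtained for 84.8% to 90.1% of values. The largest error on 3 simulated libraries was 0.15%. In these every value was a whole number of reads, so the error of the real estimates may be larger. Reads behind a gene were computed with lengths of GENCODE M21 transcripts.

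Genes averaging 1 FPKM or more were tested by limma 3.58.1, run in R 4.3.3, on log2(FPKM + 1) (eBayes with a trend, two-sided, Benjamini-Hochberg over 12658 genes). The fit was tested on simulated data in which every gene had the same spread, so its error rates in these libraries are not known from that. No count test was run. Python 3.11.15, pandas 2.3.3, numpy 2.4.6 and matplotlib 3.10.9 did the rest. Same-numbered libraries did not deviate together (r = 0.01) and were not paired.

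The members and lists were chosen with earlier results of these data known, and 4 genes of the lists were taken out and are not reported here. From each list, at most 5 called genes with the largest absolute log2 fold change were named, lists of up to 6 genes could be given in full, and others are marked. For 3 members the 3 nearest genes are named. As alternatives, the pseudocount was 0.1, the filter was dropped or raised to 5 FPKM, scaling was by median-of-ratios, quantiles or adipocyte markers, and these were joined by the replicate block, eBayes without a trend, and each library left out.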

Additional observations from a re-analysis of the deposited data

How the results depend on the processing

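The count of 6 adipokine genes called lower was 5 or 6 under every alternative that kept all 4 libraries, and 3 to 6 when 1 library was left out, the 3 being without Ctrl 1 (*Lep*, *Rbp4* and *Rarres2*). A fit on 3 libraries assumes that the lone library varies like the others. No adipokine gene was called higher in any setting. The median of the 9 log2 fold changes was -0.48 with adipocyte marker scaling, which moved the median of all genes to 0.10, and -0.71 to -0.52 with 1 library left out. *Cfd* was not called without a filter (-0.57, adjusted p = 0.23), with the replicate block (-0.57, adjusted p = 0.153) or under quantile normalization, where its log2 fold change is 0 by construction because it ranked the same in every library. With 1 library left out it ranged from -0.71 to -0.44 and was called only without cKO 1. Over the same 4 fits *Adipoq* ranged from -0.64 to -0.53 and *Retn* from -0.87 to -0.69. *Nampt* changed sign with median-of-ratios scaling (0.014), quantile normalization (0.0077) and adipocyte marker scaling (0.10), and with 1 library left out it ranged from -0.057 to 0.052. With 1 library left out *Apln* ranged from -0.049 to 0.094. Neither was called in any setting. The replicate block changed no other call among the 9 genes. Over all genes, 1519 were called higher and 1750 lower, against 667 and 1095 without a filter, 2874 and 1141 with adipocyte marker scaling, and 303 to 1072 and 484 to 1379 with 1 library left out, lowest without Ctrl 1. Among the other lists no called gene changed sign under the 3 scalings, and *Plin1* and *Lipe* were called lower with quantile normalization. *Apln* was too low for the filter at a mean FPKM of 5, and with 191 to 280 reads it and *Metrnl* are the members for which depth limits the comparison most.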
